A study of Saccharomyces cerevisiae with 24 samples.

Results

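Late was compared with early chronic calcium stress in budding yeast that lack the transcription factor Crz1. The comparison set the 3 libraries taken after 72 h in 200 mM CaCl2 against the 3 taken after 12 h in the same medium, so it used 6 of the 24 libraries of the study, and these 6 were picked by their labels alone. The study measured polyA RNA in 2 haploid strains, each sampled before treatment and after 12, 48 and 72 h in CaCl2, with 3 libraries at each point and the question of which expression changes depend on calcineurin and not on Crz1. Cells were grown in synthetic medium with ammonium chloride as nitrogen source and diluted every 12 h, so that the cultures kept growing. Both groups compared here were the crz1 strain, of BY4741 background, a MATa haploid in which CRZ1 was replaced by LEU2 (crz1delta::LEU2). It also carried the auxotrophic alleles his3delta1 and ura3delta0 together with leu2delta0 and lys2delta0, and a hygromycin marker with a GFP gene under the TEF promoter on chromosome VI (ChrVI181901-182001::HYG-TEFp-GFP(Y66F)), and all libraries of the study shared these alleles. The other strain, crz1 cnb1, carried cnb1delta::KanMx in addition. No untreated library entered the contrast, and no untreated culture of matching age was sampled, so duration of CaCl2 exposure, time in culture and number of dilutions cannot be told apart.

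Calcineurin is a phosphatase that calcium and calmodulin switch on, with Cnb1 as its regulatory subunit, and Crz1 is the transcription factor through which it acts on most of its known target genes in yeast. Without Crz1, calcineurin can still act on its other substrates. Yeast under prolonged stress also use the general stress response, in which the transcription factors Msn2 and Msn4 bind the stress response element and turn on chaperones, carbohydrate stores and redox enzymes, while genes for ribosomes and growth are turned down.

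The genotype was checked first. Reads on CRZ1 numbered 0 to 4 per library in these 6 libraries, and CNB1 had 1581 to 2560, against 3 to 22 in the crz1 cnb1 libraries. The a-specific mating genes were present, with a summed level of 969 to 1513 CPM (counts per 1e+06 counts of the library) at 12 h and 1192 to 1407 CPM at 72 h, whereas the pheromone genes of the opposite mating type, MF(ALPHA)1 and MF(ALPHA)2, reached 0.593 and 0.0915 CPM at most. The other alpha-specific genes were not at 0, with SAG1, the alpha agglutinin gene, at 26.7 to 40.6 CPM and the receptor gene STE3 at 1.73 to 7.92 CPM. Each library held between 21779565 and 21973086 counts, and 6089 of 7126 genes had enough counts to be tested. The 12 h libraries were less alike than the 72 h libraries. On the first principal component, which took 50.7% of the variance of the 6 libraries, the 72 h libraries lay between -13.5 and -9.36, and the 12 h libraries lay at -11.4, 14.5 and 32.1. The 12 h library 1 correlated more closely with the 72 h libraries (mean r = 0.986 across genes) than with the other 12 h libraries (0.979). Whether the 3 libraries of a group came from separate cultures is not stated beyond a mention of triplicate time courses. P-values of the main fit therefore measure a spread between libraries, pooled over the groups of all 24, and not one between cultures known to be separate.

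Between 12 h and 72 h, edgeR called 8 of 43 listed general stress genes and 5 of 24 members of a glycerol list higher. It called none of either list lower, but 4 and 2 members were lower at an unadjusted p under 0.05. DESeq2 called 1 member of the glycerol list lower. The lists overlap. Of the 5 called members of the glycerol list, GPP2, GPD1 and DAK1 act in glycerol metabolism. The others were the transaldolase gene NQM1 and RTC3, which are given below with the stress genes. Other called rises included the cell wall genes CWP1 and SED1, and called falls included LEU1 and ILV3 of branched-chain amino acid synthesis, the glutamine synthetase gene GLN1 and the amino acid permease gene DIP5. By edgeR's quasi-likelihood test with Benjamini-Hochberg adjustment, 115 of 6089 genes (1.89%) passed an adjusted p of 0.05, 69 of them higher (1.13%) and 46 lower (0.755%) at 72 h. DESeq2 called 125 higher and 148 lower, and limma on log2(TPM + 1) 52 higher and 21 lower. At least 2-fold changes were found for 16 of the higher and 24 of the lower genes. The median log2 change of all genes tested was 0.0044, and 962 genes had an unadjusted p under 0.05. The libraries of both times did not overlap for 113 of the 115 called genes, against 1307 of all genes tested (21.5%). The number of called genes rested on single libraries. It was 152 without 12 h library 1, 32 without 12 h library 2, 32 without 12 h library 3, 43 without 72 h library 1, 102 without 72 h library 2 and 30 without 72 h library 3. Leaving out each library in turn kept 20 of the 115 genes called throughout, 17 higher and 3 lower. In every other setting tried as well, 6 genes were called, namely CWP1, YTP1, TFS1, ATG19, FAT3 and LEU1. The other 14, among them NQM1, INH1, ALD3, SED1, GPP2, DAK1 and GLN1, did not pass in a fit of the crz1 libraries alone (edgeR adjusted p = 0.0621 to 0.0934). SED1 also missed the threshold in a fit of only the 6 libraries (edgeR adjusted p = 0.0702), and GLN1 and DAK1 by limma on log2(TPM + 1) (adjusted p = 0.0511 and 0.0606). Of all 115 genes, 54 kept their call in the fit of the 6 libraries, 8 in that of the strain, 96 without the filter on low counts and 54 by limma on log2(TPM + 1).

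Genes of the general stress response held more called members by count than any other of the 54 lists. Called higher were 18.6% of those tested, against 1.13% of all genes. The glycerol list had a larger share (20.8%), with NQM1 and RTC3 counted in it. Of 43 listed Msn2 and Msn4 stress genes tested, 8 were called and each of these rose, and the median log2 change of the list was 0.51. By library, with each gene set against its mean over all 24 libraries, the list median overlapped between the times. It was -0.64, 0.29 and 0.74 at 12 h and 0.49, 0.56 and 0.77 at 72 h. The untreated libraries of the strain were at -0.91, 0.39 and 0.50. TFS1, an inhibitor of the vacuolar carboxypeptidase Y, was at 36.7, 41.9 and 40.2 CPM in the 12 h libraries and at 76.0, 99.5 and 104 CPM in the 72 h libraries, with 48 h values of 67.4 to 70.2 CPM. It rose by 1.24 ± 0.18 on the log2 scale (SE, n = 3 per group, edgeR adjusted p = 0.00123), and each 72 h library was above each 12 h library. NQM1, a transaldolase paralogous to the pentose phosphate enzyme Tal1, stood at 25.9, 23.5 and 25.8 CPM at 12 h and at 72.8, 73.4 and 107 CPM at 72 h, a log2 change of 1.75 ± 0.27 (edgeR adjusted p = 0.00176). The 12 h values were close together and the 72 h values spread upward from them, the highest in library 3. ALD3, a cytosolic aldehyde dehydrogenase, was at 13.6, 15.4 and 24.6 CPM at 12 h and at 39.2, 39.3 and 55.3 CPM at 72 h (log2 change 1.32 ± 0.22, edgeR adjusted p = 0.00279). These genes were low to moderate in level, and none of their libraries overlapped between the times.

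HSP26, a small heat shock chaperone that binds unfolding proteins, rose from 6.62, 7.14 and 7.78 CPM to 13.3, 19.9 and 51.9 CPM (log2 change 1.98 ± 0.42, edgeR adjusted p = 0.0172). The 12 h libraries were nearly level, and 72 h library 3 stood well above the other two. RTC3 rose from 42.4 to 57.1 CPM at 12 h to 119 to 148 CPM at 72 h (log2 change 1.36 ± 0.30). GAD1, glutamate decarboxylase, and UGA1, the transaminase that uses the 4-aminobutyrate made by Gad1, rose by 1.28 ± 0.31 and 0.51 ± 0.12, and UGA3, the activator of UGA1, by 0.44 ± 0.11. GRE3, an aldose reductase, rose by 0.97 ± 0.18. HSP12, which encodes a membrane-associated stress protein, had the highest log2 change of the list but did not pass the test (2.10 ± 0.57, edgeR adjusted p = 0.0669), and its values were 91.2, 132 and 160 CPM at 12 h against 453, 428 and 756 CPM at 72 h. Other members of the stress list had values in the opposite direction without passing the test, among them CTT1, the cytosolic catalase (log2 change -1.14), and HSP30 (-3.20), so the list did not move as one. The number of called members was 5 without 12 h library 1 and between 3 and 7 over the fits that left out 1 library. Leaving out 12 h library 2, 12 h library 3 or 72 h library 3 ended the call of HSP26 (adjusted p = 0.0841, 0.0836 and 0.153) and, without 72 h library 3, its log2 change was 1.21. RTC3 and UGA1 were each called only without 72 h library 2 (otherwise 0.0551 to 0.0796 and 0.0603 to 0.246), GAD1 and UGA3 in no such fit (0.0623 to 0.176 and 0.0525 to 0.208), and GRE3 was lost without 12 h library 3 (0.0686).

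**Figure D1:**
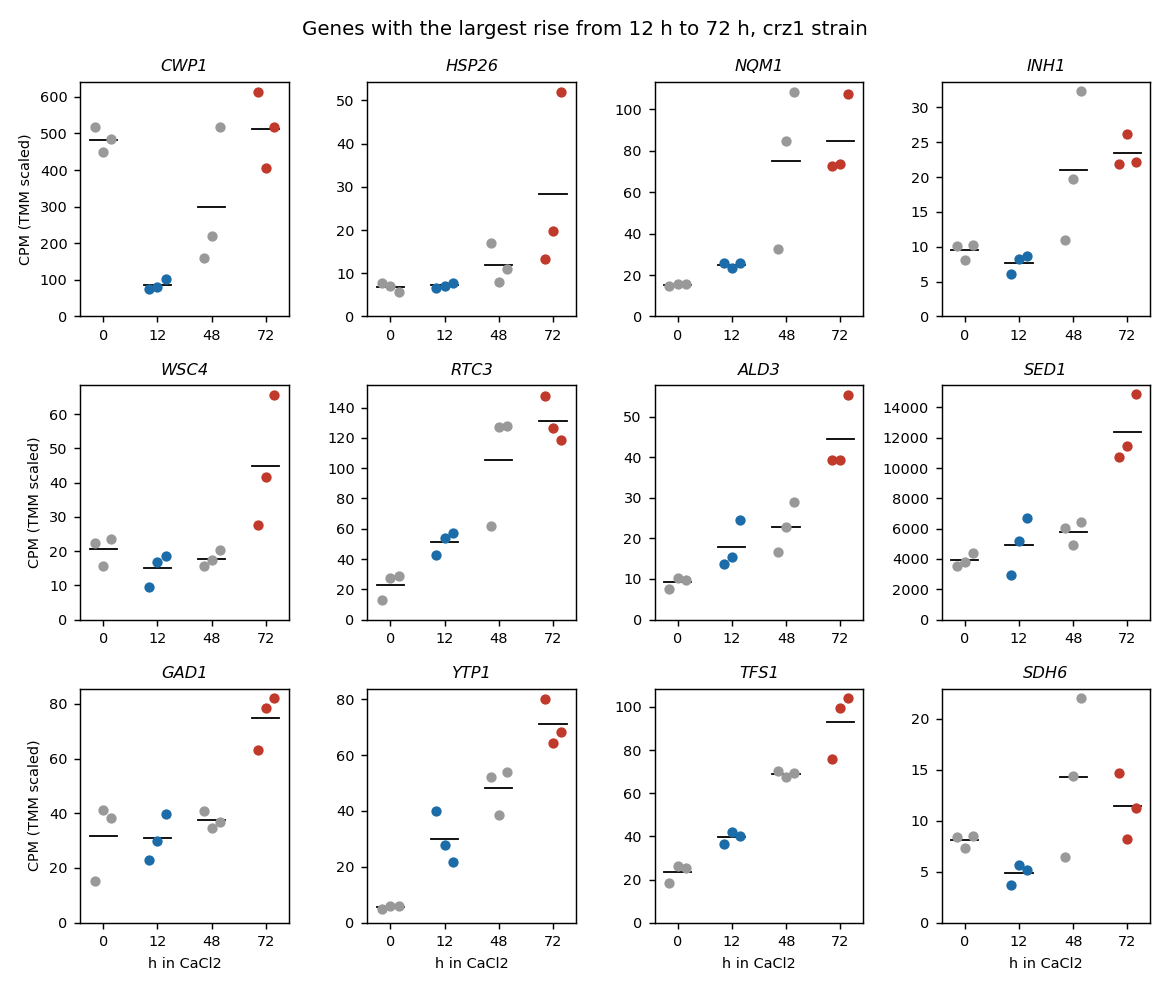
Expression of the 12 called genes with the largest rise among those of at least 10 CPM, in CPM after TMM scaling (vertical axes, each from 0), at 0, 12, 48 and 72 h in CaCl2 in the crz1 strain. Points are single libraries (12 h blue, 72 h red, 0 and 48 h grey) and lines are means of 3. In each panel the 3 red points lie above the 3 blue points; for CWP1 the red points are near the untreated level of 448 to 517 CPM.

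The upstream sequences of the genes that rose often held the stress response element. The letters AGGGG, searched on both strands in the 300 bases that end 51 bases before the start codon, occurred in 45 of the 68 higher genes with such a window (66.2%), in 8 of 43 lower genes (18.6%) and in 1326 of 5693 windows of all genes (23.3%). At least 2 copies occurred in 12 of the 68 windows (17.6%) against 3.92% of all. Among the 60 higher genes that were not on the stress list, 38 windows held the element (63.3%). Of the higher genes that rose at least 2-fold, 13 of 15 windows held it. The overlapping letters CCCCNC, given for Mig1 and Nrg1, occurred in 20 of the 68 (29.4%) against 14.6% of all, and in 13 of those 20 they overlapped an AGGGG match. These are counts of letters, given with no test, from 22 elements searched, and a match is not a bound site.

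Windows of 5 genes are printed to show pairs of the element (NQM1, TFS1 and RTC3), a single copy (SED1) and the called gene with the largest rise, whose window held none (CWP1). They were read from the RefSeq R64 genome 5′ to 3′ on the strand of the gene, with the element or its reverse complement in capitals. They lie at chrVII:581487-581786 (minus strand, NQM1), chrXII:513872-514171 (minus, TFS1), chrVIII:280470-280769 (plus, RTC3), chrIV:600443-600742 (plus, SED1) and chrXI:260782-261081 (plus, CWP1).
NQM1: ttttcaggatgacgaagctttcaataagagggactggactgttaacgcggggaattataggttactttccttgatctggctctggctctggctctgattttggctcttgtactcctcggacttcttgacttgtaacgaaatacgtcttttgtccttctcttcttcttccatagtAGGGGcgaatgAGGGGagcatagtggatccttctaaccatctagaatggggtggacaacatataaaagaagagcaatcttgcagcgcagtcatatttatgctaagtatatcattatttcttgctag
TFS1: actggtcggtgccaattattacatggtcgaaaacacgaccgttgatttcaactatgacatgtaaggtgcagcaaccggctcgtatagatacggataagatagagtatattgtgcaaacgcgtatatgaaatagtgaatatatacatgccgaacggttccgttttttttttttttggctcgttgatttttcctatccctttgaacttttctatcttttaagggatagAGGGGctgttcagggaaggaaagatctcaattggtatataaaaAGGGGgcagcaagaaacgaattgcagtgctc
RTC3: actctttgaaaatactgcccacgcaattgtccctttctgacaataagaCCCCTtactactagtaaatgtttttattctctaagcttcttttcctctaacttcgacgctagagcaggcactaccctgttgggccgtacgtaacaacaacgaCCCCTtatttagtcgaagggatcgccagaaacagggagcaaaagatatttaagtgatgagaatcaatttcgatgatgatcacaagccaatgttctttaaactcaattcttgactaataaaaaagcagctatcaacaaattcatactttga
SED1: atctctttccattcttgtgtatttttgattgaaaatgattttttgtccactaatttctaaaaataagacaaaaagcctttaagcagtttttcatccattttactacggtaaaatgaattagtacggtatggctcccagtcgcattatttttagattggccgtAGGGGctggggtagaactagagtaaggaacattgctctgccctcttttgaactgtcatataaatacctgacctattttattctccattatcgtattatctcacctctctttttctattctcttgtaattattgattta
CWP1: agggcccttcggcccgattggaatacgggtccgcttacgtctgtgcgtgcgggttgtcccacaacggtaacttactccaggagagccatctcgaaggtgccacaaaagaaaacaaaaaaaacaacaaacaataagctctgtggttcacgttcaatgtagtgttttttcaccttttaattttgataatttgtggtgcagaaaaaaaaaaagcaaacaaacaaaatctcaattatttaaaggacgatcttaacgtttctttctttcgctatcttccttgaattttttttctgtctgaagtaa
In NQM1 the copies start 176 and 165 bases before the start codon, in TFS1 124 and 81 bases before it, and in RTC3, on the opposite strand, 302 and 200 bases before it. The copy of SED1 starts 188 bases before the start codon.

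**Figure D2:**
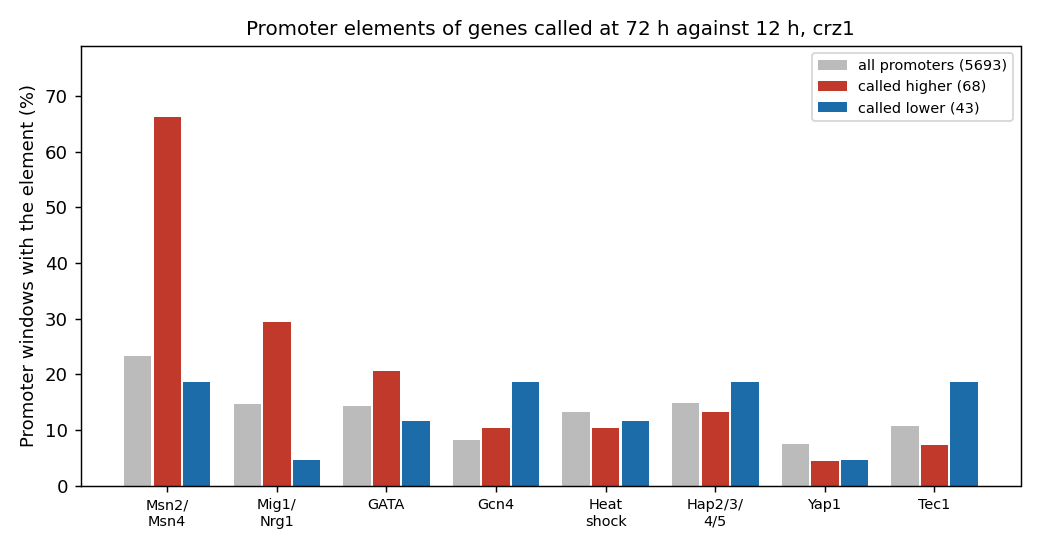
Share of upstream windows that hold each of 8 elements, in percent (vertical axis), for all genes with a window (grey, 5693), genes called higher at 72 h (red, 68) and genes called lower (blue, 43). The red bar of the Msn2/Msn4 element reaches 66.2%, against 23.3% for all genes.

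The largest rise and the largest fall among called genes were those of the cell wall genes CWP1 and DAN1. CWP1, which encodes a mannoprotein of the cell wall, was at 76.2, 80.7 and 103 CPM at 12 h and at 613, 406 and 518 CPM at 72 h. It rose 5.91-fold (log2 change 2.56 ± 0.32, edgeR adjusted p = 0.000544), with every 72 h library far above every 12 h library. Its untreated libraries were at 448 to 517 CPM and its 48 h libraries at 159, 220 and 517 CPM, so the 12 h libraries were the low ones of the time course. SED1, a major wall glycoprotein of stressed and stationary cells, went from 2963, 5160 and 6726 CPM to 10758, 11444 and 14855 CPM, a log2 change of 1.32 ± 0.23 (edgeR adjusted p = 0.00452). At 72 h it was above each of the other 9 libraries of the strain, including the untreated ones at 3508 to 4393 CPM. WSC4, of the Wsc family of membrane stress proteins, rose from 9.63 to 18.6 CPM to 27.5 to 65.6 CPM (log2 change 1.58 ± 0.29, edgeR adjusted p = 0.00638), a call lost without 72 h library 3 (0.0503). MNN1, the Golgi mannosyltransferase that caps wall glycans, rose by 0.86 ± 0.18 (edgeR adjusted p = 0.0159), a call lost without 12 h library 2, 12 h library 3 or 72 h library 1 (0.0708 to 0.0721). DAN1, a wall mannoprotein of oxygen-starved cells, fell from 1.83, 8.09 and 15.8 CPM to 0.10, 0.547 and 0.240 CPM (log2 change -4.80 ± 1.15, edgeR adjusted p = 0.0409). Its 12 h libraries differed widely, it was called only without 12 h library 1 among the fits that left out a library (otherwise 0.079 to 0.193), and its change was -2.36 on the log2(TPM + 1) scale. Of 31 listed mannoprotein genes tested, these 3 (CWP1, SED1 and DAN1) were called, and the median log2 change was 0.10. The called shares were 6.45% higher and 3.23% lower, against 1.13% and 0.755% of all genes. CWP2 was at 621, 2033 and 2698 CPM at 12 h and 5830, 3802 and 5753 CPM at 72 h and did not pass (log2 change 1.52, edgeR adjusted p = 0.271). No member of the cell wall integrity kinase list (25 tested) was called by edgeR, against 6 at an unadjusted p under 0.05 and 2 called by DESeq2.

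PIL1, NCE102 and FHN1 encode proteins of plasma membrane furrows called eisosomes, a group for which no list was made, and PIL1 and FHN1 were named after their values were seen. PIL1, which forms the eisosome core, was at 500.3, 488 and 444 CPM at 12 h and at 734, 838 and 782 CPM at 72 h (log2 change 0.72 ± 0.17, edgeR adjusted p = 0.028). NCE102, a membrane protein of the same furrows and the called member among 19 known Crz1 target genes tested, went from 308, 418 and 519 CPM to 719, 691 and 694 CPM (log2 change 0.76 ± 0.18, edgeR adjusted p = 0.0357). FHN1, its paralog, fell by 1.43 ± 0.29 on the log2 scale (edgeR adjusted p = 0.0137), from 3.93 to 8.09 CPM to 2.14 to 2.56 CPM. The libraries did not overlap for any of the 3. NCE102 made up 5.26% of the 19 Crz1 target genes tested, against 1.13% higher among all genes. The median log2 change of that list was -0.06. PIL1 and NCE102 were each called in 1 of the 6 fits that left out a library (PIL1 without 12 h library 1, otherwise 0.0579 to 0.139, and NCE102 without 12 h library 3, otherwise 0.0714 to 0.129). FHN1 was lost without 12 h library 2, 12 h library 3 or 72 h library 3 (0.0625, 0.103 and 0.0854).

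Glycerol, the osmolyte of yeast, is made from a glycolytic intermediate by Gpd1 and Gpp2. Of 24 tested members of the glycerol list, 5 were called, each of them higher. Those that act in glycerol metabolism were GPP2, GPD1 and DAK1. GPP2, the glycerol-3-phosphate phosphatase, was at 631, 713 and 675 CPM at 12 h and at 1146, 1359 and 1296 CPM at 72 h (log2 change 0.91 ± 0.16, edgeR adjusted p = 0.00452). GPD1, the glycerol-3-phosphate dehydrogenase, was at 435, 578 and 696 CPM at 12 h and at 1245, 823 and 1082 CPM at 72 h (log2 change 0.88 ± 0.19, edgeR adjusted p = 0.0165). Both were lower in the untreated libraries, GPP2 at 232 to 266 CPM and GPD1 at 184 to 293 CPM, so levels at 72 h were above those at 0 and 12 h. DAK1, which phosphorylates dihydroxyacetone, rose from 201 to 221 CPM to 309 to 347 CPM (log2 change 0.67 ± 0.12, edgeR adjusted p = 0.00394). The other called members were NQM1 and RTC3, given above with the stress genes, so the counts of the glycerol and stress lists are not independent. The paralogs that did not pass were GPD2 (log2 change -0.18) and GPP1 (0.17), and the kinase HOG1 that governs osmotic adaptation was at 0.10. GPD1 was called without 12 h library 3 or 72 h library 2 but not in the other 4 fits that left out a library (0.0528 to 0.0902).

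Of 21 trehalose and glycogen genes tested, 2 were called (9.52%, against 1.13% higher among all genes), and the list median was 0.06. GDB1, the glycogen debranching enzyme, was at 12.6, 16.6 and 20.2 CPM at 12 h and at 33.3, 27.4 and 34.6 CPM at 72 h (log2 change 0.95 ± 0.18, edgeR adjusted p = 0.00841). GLG2, a glycogenin that primes glycogen, rose by 0.76 ± 0.16 (edgeR adjusted p = 0.0165). The calls were lost without 72 h library 3 for GDB1 (0.0777) and without 12 h library 2, 12 h library 3 or 72 h library 1 for GLG2 (0.0625 to 0.108).

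Single genes of mitochondria and of redox defence were among the called rises. INH1, which inhibits ATP hydrolysis by the mitochondrial ATP synthase, was at 6.12, 8.29 and 8.62 CPM at 12 h and at 21.9, 26.2 and 22.2 CPM at 72 h, a log2 change of 1.61 ± 0.30 (edgeR adjusted p = 0.00645). The groups were well apart, and STF1, its relative, rose by 0.79 ± 0.19. SDH6, an assembly factor of succinate dehydrogenase, rose by 1.23 ± 0.31 (edgeR adjusted p = 0.0443) from 3.74 to 5.69 CPM to 8.26 to 14.7 CPM. PRX1 and SOD2, the mitochondrial peroxiredoxin and superoxide dismutase, rose by 0.62 ± 0.14 and 0.52 ± 0.13, and HYR1, a peroxidase that relays peroxide signals, by 0.46 ± 0.12. These were 2 of 31 peroxiredoxin, thioredoxin and superoxide defence genes tested and 1 of 27 glutathione genes (6.45% and 3.70%, against 1.13% higher among all genes), and the medians of these lists were -0.02 and 0.05. None of the 42 nuclear respiratory chain and ATP synthase genes tested was called by edgeR, with 5 at an unadjusted p under 0.05 and 1 called by DESeq2. Of the 72 mitochondrial ribosomal protein genes tested, MRP4 rose (0.49 ± 0.11, edgeR adjusted p = 0.0209), and 1 of 72 (1.39%) is near the share of all genes. Without 1 library at a time, SDH6, SOD2 and HYR1 kept their call only without 72 h library 2 (otherwise 0.1 to 0.169, 0.0721 to 0.135 and 0.0669 to 0.184), and STF1 was called in none of these fits (0.0552 to 0.183). PRX1 lost it without 12 h library 2, 12 h library 3 or 72 h library 2 (0.0625 to 0.11) and MRP4 without 12 h library 2, 12 h library 3, 72 h library 1 or 72 h library 3 (0.0657 to 0.153).

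ATG19, AMS1, ATG40, ATG31 and UBI4 were called higher, and no list of autophagy genes was made. ATG19 encodes the receptor that carries vacuolar enzymes such as Ams1 along the autophagy route. It was between 20.7 and 22.3 CPM in the 12 h libraries and at 40.4, 43.7 and 39.4 CPM in the 72 h libraries, with a log2 change of 0.93 ± 0.13 (edgeR adjusted p = 0.00123) and little spread within either time. AMS1, the vacuolar alpha-mannosidase that is its cargo, rose from 18.3 to 22.7 CPM to 35.9 to 51.7 CPM (log2 change 1.06 ± 0.24, edgeR adjusted p = 0.0274). The autophagy genes ATG40 and ATG31 rose by 0.83 ± 0.18 and 0.57 ± 0.13. UBI4, the polyubiquitin gene used under stress, was at 85.2, 83.3 and 89.8 CPM at 12 h and at 123, 137 and 154 CPM at 72 h (log2 change 0.68 ± 0.11, edgeR adjusted p = 0.00268). No proteasome subunit gene was called by edgeR (33 tested), with 2 at an unadjusted p under 0.05 and 1 called by DESeq2. Without 12 h library 2, 12 h library 3, 72 h library 1 or 72 h library 3 the calls of AMS1 and ATG31 were lost (0.0654 to 0.183 and 0.0623 to 0.0991). That of ATG40 was lost without 12 h library 1, 12 h library 2, 72 h library 1 or 72 h library 3 (0.0568 to 0.135).

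YTP1 and HBT1 were the other named rises. YTP1, a membrane protein of unknown function, went from 40.1, 27.8 and 21.5 CPM at 12 h to 80.0, 64.4 and 68.4 CPM at 72 h (log2 change 1.25 ± 0.20, edgeR adjusted p = 0.00225). Its untreated libraries were at 4.99 to 5.96 CPM, the lowest of the 4 times. HBT1, which takes part in shaping mating projections, rose from 14.3 to 21.3 CPM to 31.7 to 48.6 CPM (log2 change 1.06 ± 0.20, edgeR adjusted p = 0.0076), a call lost without 12 h library 3 (0.0721) or 72 h library 3 (0.0854).

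Cell cycle and actin patch genes had mostly positive log2 changes and few calls. All 22 listed G2/M genes tested had a positive log2 change, with a median of 0.29 and 2 calls. CLB1, a mitotic cyclin, was at 71.5, 65.2 and 62.6 CPM at 12 h and at 90.0, 119 and 115 CPM at 72 h (log2 change 0.70 ± 0.13, edgeR adjusted p = 0.0062). Its paralog CLB2 rose by 0.74 ± 0.17 (edgeR adjusted p = 0.0319). Of 36 G1/S and replication genes tested, 33 were positive with a median of 0.41, and the called ones were CLN1, a G1 cyclin (0.60 ± 0.15, edgeR adjusted p = 0.0357), and MNN1 of the cell wall. Of 45 actin patch and endocytosis genes tested, 39 were positive with a median of 0.23. BBC1 and SYP1, which regulate patch assembly, were the called ones, at 0.85 ± 0.20 and 0.87 ± 0.20. The called shares were 9.09% for G2/M, 5.56% for G1/S and 4.44% for actin patch genes, against 1.13% higher among all genes. In RNA from whole cultures, a larger share of cells at 1 stage of the cycle and more RNA per cell cannot be told apart. The medians of these 3 lists kept their sign in every alternative (0.23 to 0.40, 0.29 to 0.60 and 0.19 to 0.32). Leaving out 1 library ended the calls of CLB2 (without any except 12 h library 1, 0.0537 to 0.13), CLN1 (12 h library 1 or 2, 72 h library 2 or 3, 0.0691 to 0.246), BBC1 and SYP1 (both without 12 h library 2 or 3 or 72 h library 1 or 3, 0.0748 to 0.168 and 0.0949 to 0.142).

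Of 38 listed Gcn4-type genes of amino acid synthesis tested, 3 were called lower and 1 higher. These were 7.89% and 2.63% of the list, against 0.755% and 1.13% of all genes. LEU1, the isopropylmalate isomerase of leucine synthesis (YGL009C, chromosome VII, 476313 to 478652), was at 286, 338 and 375 CPM at 12 h and at 150.0, 145 and 146 CPM at 72 h. It fell by 1.18 ± 0.16 on the log2 scale (edgeR adjusted p = 0.00123), and the 72 h libraries lay within 5 CPM of each other and far below the 12 h ones. ILV3, the dihydroxyacid dehydratase of the shared branched-chain pathway, was at 416, 495 and 564 CPM at 12 h and at 301, 268 and 297 CPM at 72 h (log2 change -0.77 ± 0.14, edgeR adjusted p = 0.00706), a call lost without 12 h library 3 (0.0721). LEU2, present here as the marker that replaced CRZ1, fell by 0.60 ± 0.15 (edgeR adjusted p = 0.0443). GLN1, glutamine synthetase (YPR035W, chromosome XVI, 642208 to 643320), was at 1349, 1412 and 1372 CPM at 12 h and at 583, 785 and 790 CPM at 72 h (log2 change -0.94 ± 0.16, edgeR adjusted p = 0.00316). The called members of the list were LEU1, ILV3 and GLN1, which fell, and LYS1, saccharopine dehydrogenase of lysine synthesis, which rose (0.89 ± 0.19, edgeR adjusted p = 0.0159). GCN4 itself was at -0.03. The element TGACTC of Gcn4 was searched on both strands. It occurred in 8 of the 43 lower windows (18.6%), in 7 of the 68 higher windows (10.3%) and in 8.27% of all. The windows of LEU1, ILV3 and GLN1 held 1 copy each, and that of LYS1, which rose, held 2. Elements given for Tec1 and Hap2/3/4/5 also occurred in 18.6% of the lower windows, against 10.7% and 14.9% of all. LYS1 was not called without 12 h library 2, 12 h library 3 or 72 h library 1 (0.0591 to 0.0708), nor LEU2 without 12 h library 2 or 3 or 72 h library 2 or 3 (0.141 to 0.246).

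Of 33 nitrogen source genes tested, DIP5 and DUR12 fell and UGA1 and UGA3 rose. Each direction held 6.06% of the list, against 0.755% lower and 1.13% higher among all genes. DIP5, the permease for glutamate and aspartate, was at 242, 511 and 848 CPM at 12 h and at 148, 134 and 154 CPM at 72 h (log2 change -1.88 ± 0.47, edgeR adjusted p = 0.0443). The 72 h libraries were level and the 12 h libraries spread more than 3-fold, with library 1 nearest to them. ATO3, a membrane protein tied to ammonium export that also fell, was at 180, 194 and 210 CPM at 12 h and at 131, 93.5 and 112 CPM at 72 h (log2 change -0.80 ± 0.15, edgeR adjusted p = 0.00897). DUR12, urea amidolyase, had overlapping libraries, at 32.4, 61.4 and 97.5 CPM against 37.2, 24.1 and 29.8 CPM (log2 change -1.07 ± 0.27, edgeR adjusted p = 0.0443). AGP1, a broad amino acid permease, was at 78.1, 187 and 315 CPM against 63.5, 56.7 and 86.4 CPM and did not pass (log2 change -1.49, edgeR adjusted p = 0.0638). Among the fits that left out a library, DIP5 and DUR12 kept their call only without 12 h library 1 (otherwise 0.117 to 0.243 and 0.0623 to 0.321), and both also lost it without the filter on low counts (0.0564 and 0.0514) and by limma on log2(TPM + 1) (0.0673 and 0.146). In the fits that left out a library, the change of DUR12 was -0.62 without 12 h library 3, and ATO3 was lost without 12 h library 3 (0.0526).

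**Figure D3:**
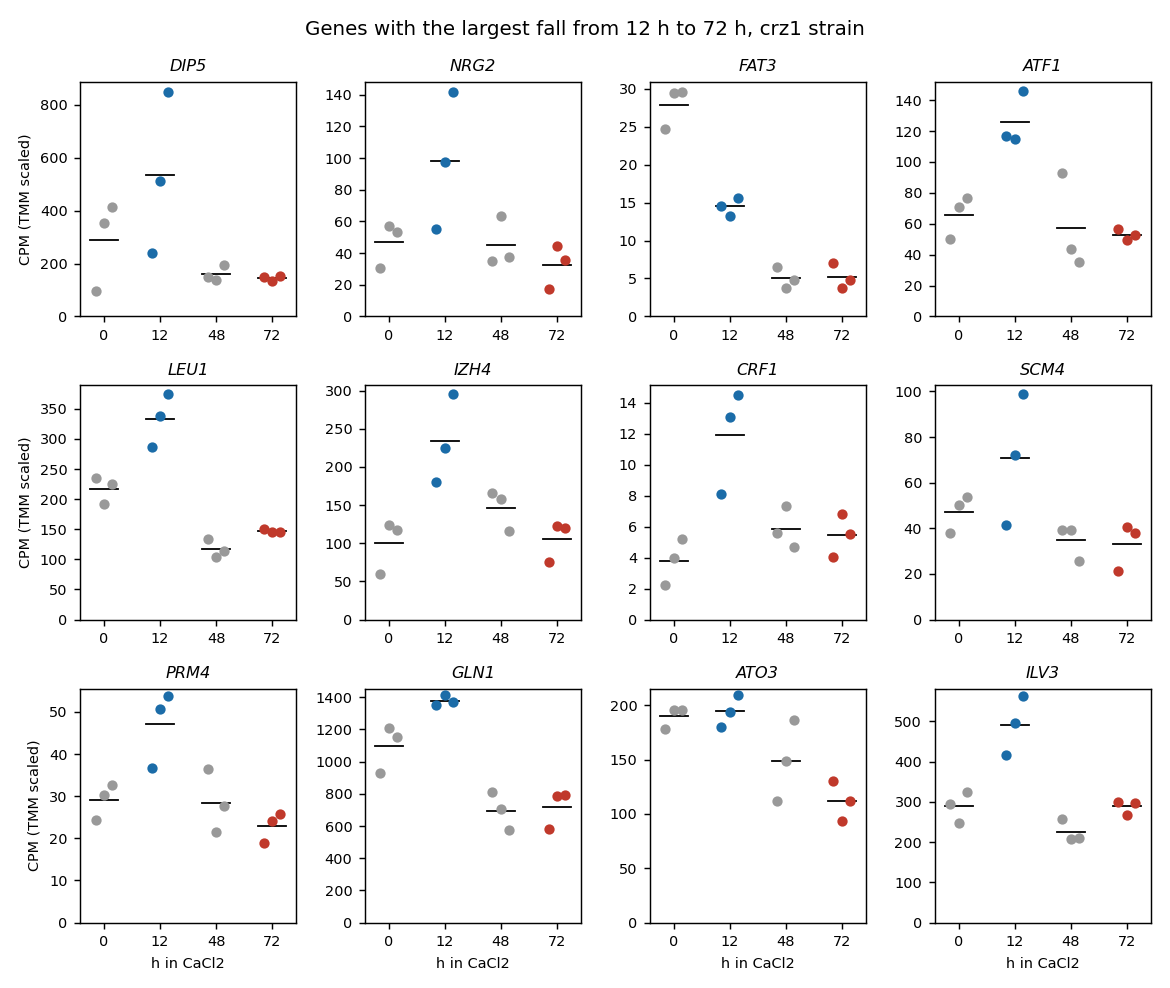
Expression of the 12 called genes with the largest fall among those of at least 10 CPM, in CPM after TMM scaling (vertical axes, each from 0), at 0, 12, 48 and 72 h in CaCl2 in the crz1 strain. Points are single libraries (12 h blue, 72 h red, 0 and 48 h grey) and lines are means of 3. The red points lie below the blue points in each panel, and the blue points of DIP5 run from 242 to 848 CPM.

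FAT3, ATF1 and POX1, of fatty acid and ester metabolism, were called lower, and of the 19 genes tested on the fatty acid list POX1 was the called one. This was 5.26% of the list, against 0.755% lower among all genes, and the list median log2 change was -0.21. FAT3, involved in fatty acid uptake, was at 14.6, 13.3 and 15.7 CPM at 12 h and at 7.07, 3.69 and 4.76 CPM at 72 h, a log2 change of -1.49 ± 0.22 (edgeR adjusted p = 0.00138). Its untreated libraries were higher still, at 24.7 to 29.5 CPM, so each later time was below the one before or level with it (48 h, 3.79 to 6.55 CPM). ATF1, the alcohol acetyltransferase that makes acetate esters, fell from 115 to 146 CPM to 49.7 to 56.5 CPM (log2 change -1.25 ± 0.28, edgeR adjusted p = 0.027). POX1, the acyl-CoA oxidase of fatty acid breakdown, fell by 2.37 ± 0.57 (edgeR adjusted p = 0.0361) at low level, from 1.83, 5.89 and 10.4 CPM to 0.601, 1.46 and 1.39 CPM.

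NRG2, a repressor of glucose-repressed genes, was at 55.1, 97.6 and 142 CPM at 12 h and at 17.0, 44.6 and 35.9 CPM at 72 h (log2 change -1.59 ± 0.39, edgeR adjusted p = 0.0407). CRF1, a corepressor linked to ribosomal protein genes, fell by 1.11 ± 0.28, SCM4, a mitochondrial outer membrane protein, by 1.09 ± 0.26, and IZH4, a membrane protein of zinc homeostasis, by 1.14 ± 0.29. PRM4, a pheromone-regulated gene, was at 36.7, 50.6 and 53.8 CPM at 12 h and at 19.0, 24.2 and 25.7 CPM at 72 h (log2 change -1.03 ± 0.20, edgeR adjusted p = 0.0076). In most of these genes the 12 h library 1 was nearest to the 72 h level. Over the 46 genes that fell, 12 h library 1 was the lowest of the 12 h libraries for 36 and 12 h library 3 the highest for 34, whereas over the 69 that rose library 1 was the lowest for 26 and the highest for 31.

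ANB1, the eIF5A paralog of oxygen-starved cells, fell from 5.98 to 10.3 CPM to 3.16 to 3.47 CPM (log2 change -1.25 ± 0.31, edgeR adjusted p = 0.0397), and HXT9, a hexose transporter, from 1.96 to 3.89 CPM to 0.802 to 1.05 CPM (-1.67 ± 0.33, edgeR adjusted p = 0.0119). STE3, the pheromone receptor normally made by alpha cells, was at 7.90, 7.19 and 7.04 CPM at 12 h and at 3.11, 1.92 and 1.83 CPM at 72 h (log2 change -1.69 ± 0.40, edgeR adjusted p = 0.0312). The other alpha-specific genes did not pass, and the summed level of the 4 was 35.0 to 39.9 CPM at 12 h and 29.4 to 42.9 CPM at 72 h, most of it from SAG1. The part of other cell types in these falls was not tested. HXT9 belongs to a family of near-identical transporter genes, so its reads may be split with other members.

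Among these falls, FAT3 was called in each of the 6 fits that left out a library. The call of ATF1, IZH4, POX1, STE3 and ANB1 was lost in 5 of the 6 fits, with adjusted p = 0.0625 to 0.148, 0.0676 to 0.224, 0.0727 to 0.218, 0.0512 to 0.179 and 0.0893 to 0.218. Each of these 5 was called only without 12 h library 1. NRG2, CRF1 and SCM4 were lost without 12 h library 2, 12 h library 3, 72 h library 1 or 72 h library 3 (0.112 to 0.206, 0.172 to 0.218 and 0.102 to 0.218). PRM4 was lost without 12 h library 3 (0.0721) or 72 h library 1 (0.0579), and HXT9 without 12 h library 3, 72 h library 1 or 72 h library 3 (0.0579 to 0.0812). On the log2(TPM + 1) scale the changes of POX1, HXT9 and STE3 were -0.96, -0.65 and -1.12.

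Genes of the translation machinery had mostly negative log2 changes and few calls. Of the 137 cytosolic ribosomal protein genes tested, 4 had a positive log2 change, and the median was -0.32 with a range of -0.59 to 0.15. None was called by edgeR, against 48 at an unadjusted p under 0.05, each of these lower, 10 called lower by DESeq2 and 2 by limma on TPM. The smallest p was that of RPS14B (log2 change -0.59, edgeR adjusted p = 0.0904). Among 65 nucleolar and processome genes tested, KRR1, of the small-subunit processome, fell from 137, 142 and 146 CPM to 89.0, 115 and 82.1 CPM (log2 change -0.57 ± 0.12, edgeR adjusted p = 0.0165), with a list median of -0.12. This call was 1.54% of the list, against 0.755% lower among all genes. CBF5 and GAR1, the pseudouridine synthase and a partner in the same snoRNP, fell by 0.49 ± 0.12 and 0.49 ± 0.13. The ribosomal protein median stayed between -0.41 and -0.24 in every alternative, while that of the processome list turned to 0.02 without 12 h library 1. KRR1 was lost without 12 h library 2, 12 h library 3, 72 h library 1 or 72 h library 3 (0.0625 to 0.136), and CBF5 and GAR1 were called only without 12 h library 1 (otherwise 0.0676 to 0.19 and 0.108 to 0.2).

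Sterol genes of the late pathway had mostly negative log2 changes as well. Of 20 genes from squalene to ergosterol, 1 was positive and the median was -0.36, between -0.47 and -0.27 over the alternatives. None was called by edgeR, against 12 lower at an unadjusted p under 0.05 and 7 called lower by DESeq2. ERG3, the C-5 sterol desaturase, had the smallest p (log2 change -0.71, edgeR adjusted p = 0.0869).

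Iron uptake, sulfate and calcium genes had no change called by edgeR between the times. For the 7 siderophore mannoprotein and transporter genes the median log2 change was 0.02, with no call by edgeR or DESeq2 and none at an unadjusted p under 0.05. The median of the 21 reductive iron and copper uptake genes was 0.25, with FRE1, a ferric reductase, at 0.76 (edgeR adjusted p = 0.177), 2 genes at an unadjusted p under 0.05 and no call by either tool. For the 10 sulfate assimilation genes the median was 0.03, and for the 18 calcium transporter and calcineurin genes it was -0.0038, with PMC1, the vacuolar calcium pump, at 0.36 (edgeR adjusted p = 0.112). Neither list had a call by edgeR or DESeq2, and 0 and 3 members had an unadjusted p under 0.05. In all, 31 of 54 lists had no called member by edgeR, and 14 of these 31 had none by DESeq2 either. Of the 23 lists with a call, 13 held only higher, 7 only lower and 3 both kinds. A p above the threshold does not show that a gene stayed level.

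**Figure D4:**
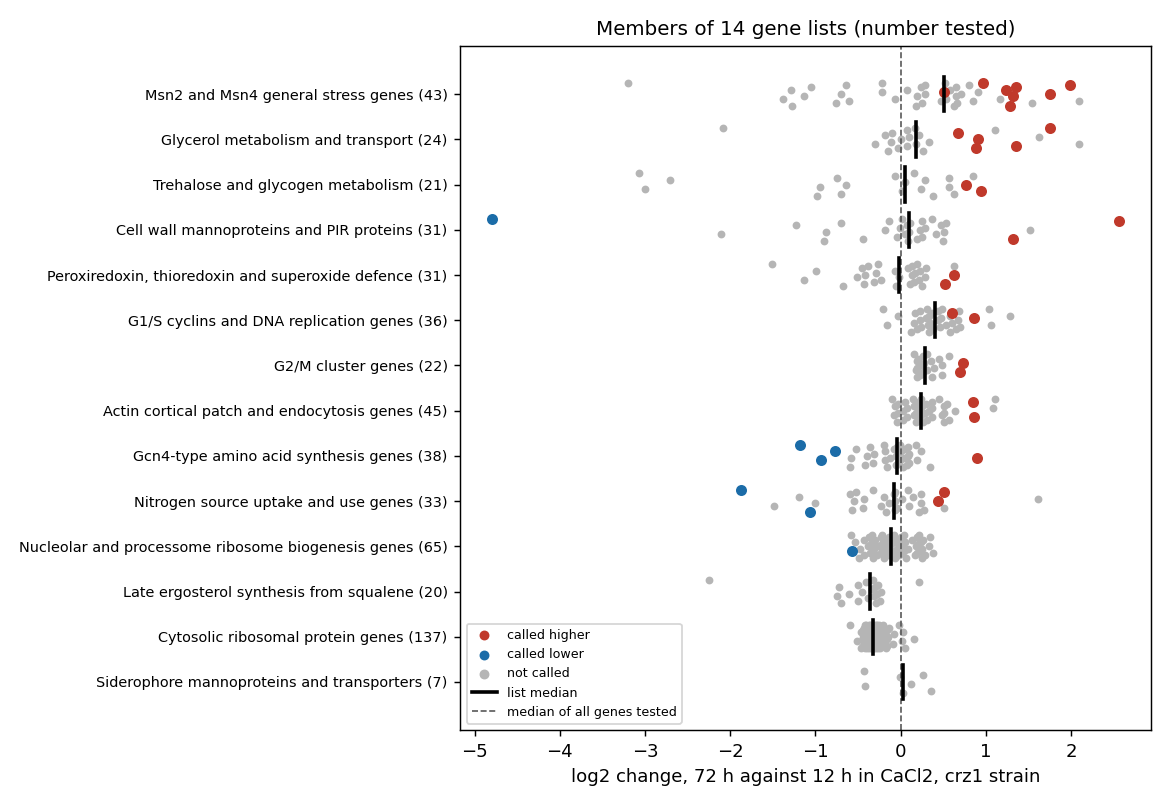
Log2 change from 12 h to 72 h in CaCl2 in the crz1 strain (horizontal axis) for each tested member of 14 gene lists (vertical axis, number tested in brackets). Red points are genes called higher, blue points genes called lower, grey points genes that did not pass, black lines list medians and the dashed line the median of all genes (0.0044). The stress list has its median at 0.51 and 8 red points, and the ribosomal protein list is gathered around -0.32 with no coloured point.

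The same contrast in the crz1 cnb1 strain, which lacks calcineurin as well, shares no library with the one above. There 270 of 6089 genes (4.43%) were called, 128 higher (2.1%) and 142 lower (2.33%). Both strains called 37 genes, 23 higher and 14 lower in each and 0 in opposite directions, which is 32.2% of the crz1 list and 13.7% of the crz1 cnb1 list. The genes called in both included TFS1 (log2 change 1.24 in crz1 and 0.99 in crz1 cnb1), SED1 (1.32 and 1.15), HSP26 (1.98 and 2.08), UBI4 (0.68 and 0.82), ATG19 (0.93 and 0.72), AMS1 (1.06 and 1.27), LEU1 (-1.18 and -0.82) and STE3 (-1.69 and -2.02). The 69 genes that rose in crz1 had a median log2 change of 0.76 there, which chose them, and of 0.47 in crz1 cnb1, and the 46 that fell had -1.05 and -0.42. In crz1 cnb1, 66 of the 69 and 39 of the 46 had the same sign. The share of same signs over all genes tested was not counted, so these counts have no background beside them. Of the stress list, 7 of 43 were called higher in crz1 cnb1, with a median of 0.59.

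Other named genes had smaller values in crz1 cnb1 and did not pass there. CWP1 changed by 0.55 ± 0.30 (edgeR adjusted p = 0.296), GPD1 by 0.03 ± 0.19 (0.943), DAK1 by 0.14 ± 0.11 (0.497), MNN1 by -0.13 ± 0.18 (0.725), GLN1 by -0.36 ± 0.16 (0.181), FAT3 by -0.39 ± 0.21 (0.299) and PRM4 by 0.29 ± 0.20 (0.415). The test of the difference between the strains did not pass for any of these, with edgeR adjusted p = 0.259 for CWP1, 0.577 for GPD1 and DAK1, 0.333 for MNN1, 0.741 for GLN1, 0.496 for FAT3 and 0.259 for PRM4. The differences of the log2 change were 2.02 ± 0.43 for CWP1, 0.85 ± 0.26 for GPD1 and -1.32 ± 0.28 for PRM4. Over all genes 369 had an unadjusted p under 0.05 in this test, and SPG1 alone passed (0.0164%). SPG1, a gene of survival at high temperature in stationary phase, had few counts in every library. In crz1 it was at 0.411, 0.549 and 0.578 CPM at 12 h and at 0.10, 0.0912 and 0.0481 CPM at 72 h, and in crz1 cnb1 at 0.188, 0.193 and 0.152 CPM and at 0.438, 0.569 and 0.470 CPM. The groups did not overlap in either strain and moved in opposite directions, with a difference of -4.03 ± 0.69 (edgeR adjusted p = 0.0487). The call was lost in each fit that left out any library of either strain (adjusted p = 0.0807 to 0.256), except that without crz1 12 h library 1 (0.0356). On the log2(TPM + 1) scale the difference was -1.66, and DESeq2 called 10 genes in this test.

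**Figure D5:**
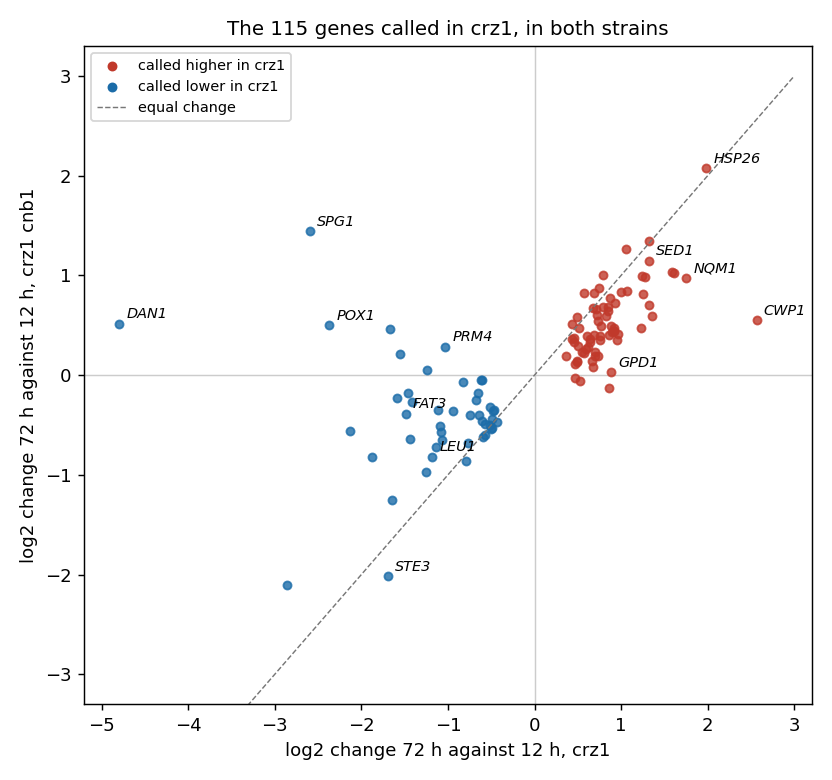
Log2 change from 12 h to 72 h of the 115 genes called in crz1, in the crz1 strain (horizontal axis) and in the crz1 cnb1 strain (vertical axis), with genes called higher in red and lower in blue and a dashed line of equal change. Since the points were chosen by their horizontal value, their lying nearer to 0 on the vertical axis is no test. SPG1 and DAN1 lie below 0 in crz1 and above 0 in crz1 cnb1.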

How the data were processed

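The authors deposited raw gene counts. Per the submitters' processing notes, featureCounts, build R64 and DESeq2 were used. The deposited TPM values come from the same libraries. The sources used here give no tool version, aligner or strandedness, so overlapping genes on opposite strands may share reads. Of the 7126 genes of the count table, 6048 matched a gene of the RefSeq annotation, and 12 called genes had no standard name. No column of the tables belonged to other samples.

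Counts were tested with edgeR 4.0.16 (R 4.3.3) after TMM scaling and edgeR's group-wise low-count filter, by a robust quasi-likelihood fit to all 24 libraries with 1 coefficient per group. P-values were adjusted by Benjamini-Hochberg over the 6089 genes tested, and genes under 0.05 were called. CPM values are scaled by TMM, except the mating genes of the genotype check, which use library totals. Values after ± are standard errors from the F statistic.

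Genes named are the 14 largest rises and 12 largest falls of called genes that had a standard name, averaged 10 CPM or more at either time and had groups that did not overlap, up to 3 called members per list with the smallest p, the strain difference and the genotype checks. GPD1, GRE3, HSP12, HSP30, CTT1, PIL1, FHN1, STF1, UGA3, UBI4, ATG19, ATG31, ATG40, CBF5, GAR1, LYS1, CWP2, AGP1, GPD2, GPP1, HOG1, GCN4, GSP2, HSP31, PLN1, SAG1 and YBR116C fall outside this rule or were named after their values were seen. Genes and the 54 lists were chosen with earlier results of these data known, and the lists were written from general knowledge. Lists are described by counts and medians, without a set test.

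Upstream windows of 300 bases were read from the RefSeq R64 genome for 5693 genes. 4 called genes, 1 higher and 3 lower, had no window.

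Alternatives were RLE size factors, no filter, no robust option, the replicate number as a block, fits of fewer libraries, DESeq2 1.42.0, limma 3.58.1 on log2(TPM + 1) and log2(TPM + 0.1), and each library left out. With 2 libraries left in a group, the spread was pooled over all groups. The fitting code was tested on simulated counts. Python 3.11.15 and matplotlib 3.10.9 drew the figures.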

Additional observations from a re-analysis of the deposited data

Results flagged for a closer look

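The change of SPG1 from 12 h to 72 h differed between the strains by the test of the difference itself. The log2 change was -2.59 ± 0.52 in crz1 and 1.44 ± 0.45 in crz1 cnb1, a difference of -4.03 ± 0.69 (edgeR adjusted p = 0.0487). The gene stood at 0.578 CPM or less in each of these 12 libraries, a few counts per library, and its adjusted p over the alternatives ran from 0.00107 to 0.256.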

How the results depend on the processing

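With the crz1 change from 12 h to 72 h calling 115 genes, RLE size factors, no filter, no robust option and a fit of only the 6 libraries gave 84 to 121. DESeq2 called 273 (125 higher, 148 lower), limma on log2(TPM + 1) 73 (52 higher, 21 lower) and on log2(TPM + 0.1) 70 (51 higher, 19 lower) (these settings change the test together with the scaling). A fit of the crz1 libraries alone called 8. Without 12 h library 1 the split was 60 higher and 92 lower, and over all fits that left out a library the count ran from 30 to 152. No called gene changed its sign in any of these settings. Genes removed by the filter on low counts could not be called, and the pseudocount understates changes of low genes on the TPM scales. For crz1 cnb1, 270 genes became 524 by DESeq2, 660 in a fit of that strain alone and 26 to 418 with a library left out. The strain difference called 1 gene by edgeR (369 at an unadjusted p under 0.05), 0 without the filter and 0 in a fit of only the 12 and 72 h libraries, 10 by DESeq2, 2 by limma on either TPM scale and 0 to 2 with a library left out. With the replicate number as a block within strain the counts were 202 for crz1, 429 for crz1 cnb1 and 2 for the difference. In this block fit 111 of the 115 genes were called, and the others were DAN1, DUR12, LEU2 and YBR116C (edgeR adjusted p = 0.0601, 0.0566, 0.056 and 0.0505). Whether same numbers mark pairs was not settled by the correlations of the libraries' deviations from their group means. Same-numbered 12 h and 72 h libraries of crz1 correlated at 0.0584, 0.0842 and 0.257, and unlike-numbered ones at -0.287 to 0.181. Only for number 3 did both libraries correlate best with their own number. In crz1 cnb1 the same-numbered pairs were at 0.101, -0.0434 and 0.123, and the unlike-numbered ones at -0.176 to 0.137. The cause of these shifts was not tested.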

Other observations

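Several rises that no list held were called in each fit that left out a library, and they were named after their values were seen. GSP2, a Ran GTPase paralog of nuclear transport, was at 26.4, 28.1 and 28.7 CPM at 12 h and at 49.7, 49.9 and 67.3 CPM at 72 h (log2 change 1.0 ± 0.17, edgeR adjusted p = 0.00316). PLN1, a lipid droplet protein, was at 60.6, 75.4 and 70.3 CPM at 12 h and at 118, 130 and 133 CPM at 72 h (0.88 ± 0.14, edgeR adjusted p = 0.00225). HSP31, of the DJ-1 family of methylglyoxal detoxifying proteins, was at 34.0, 34.8 and 42.0 CPM at 12 h and at 59.1, 71.5 and 78.4 CPM at 72 h (0.92 ± 0.16, edgeR adjusted p = 0.00452). In each of the 3 the libraries of the times did not overlap. In crz1 cnb1 GSP2 and PLN1 were also called higher (log2 change 0.83 and 0.49), and HSP31 was at 0.47 (edgeR adjusted p = 0.089).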
